A study of Mus musculus with 12 samples.

Results

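The genes examined were 10 that encode exchangeable paralogous subunits of BAF chromatin remodelling complexes, in 4 families, chosen by name. They were the ATPase genes Smarca4 and Smarca2, the scaffold genes Smarcc1 (BAF155) and Smarcc2 (BAF170), the BAF60 genes Smarcd1, Smarcd2 and Smarcd3, and the ARID genes Arid1a, Arid1b and Arid2. All 10 were found among the 37310 genes of the mm9 annotation, of which 22367 were protein coding on chromosomes 1 to 19, X and Y. For each gene, distinct BRG1-binding regions were counted within 1 kb either side of each annotated transcriptional start site (TSS), in the gene body away from TSSs, and within 100 kb of the gene.

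BAF complexes use ATP to move or evict nucleosomes. Each complex contains a single ATPase, either BRG1 or BRM, together with BAF155, BAF170 or both as scaffold, a BAF60 subunit and often a large ARID subunit, and the choice among paralogues gives complexes of different composition in different cell types. BAF60c, the product of Smarcd3, is known for its role in heart development.

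BRG1 was mapped by chromatin immunoprecipitation and sequencing (ChIPseq) in cells differentiated from mouse embryonic stem cells, and the question asked was where BRG1 sits when cardiac fate is being set. The list used came from wild-type cardiac precursors (CPs) of strain W4/129S6, which had been grown as embryoid bodies with VEGF, Activin and BMP4 and then as monolayers with FGFs. It rested on 2 libraries made with a BRG1 antibody and 1 input library. The series has 12 libraries, and the 9 others, made from cardiomyocytes or after deletion of BAF170 or BAF60c, were left aside. The list had 4791 rows that named 3473 distinct regions, by position alone. A region on several rows was counted once here, whereas each row is a region in the list as deposited. The list is labelled as that of CPs, which positions alone cannot test. Its number of rows equals the authors' count of BRG1 sites in CPs, whereas its number of distinct regions equals their count in cardiomyocytes. Which of these cells the distinct regions describe was not tested, so CPs in what follows means the cells named by that label. With no height, P-value or value per library, no region carried an error between replicates, the depth of each library was unknown, and a TSS without a region may have been unbound or below the threshold of the list. The labelled cell type could not be compared with marker genes, since positions hold no expression values.

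Of the 10 genes, 6 had a region at a TSS, and DNA from 5 of these regions is shown because it is the sequence at which BRG1 was listed. Each run is read 5′ to 3′ on the strand of the gene from mm9, and holds no annotated untranslated region. Capitals mark, on either strand, the words GGGCGG (the GC box of SP and KLF factors) and CCAAT (NFY). The Smarca2 run is the middle of its region and lies between annotated exons. The Smarcd2 run opens with the start codon and holds 216 coding bases before the intron. The Smarcd3 run is the part of its region upstream of the gene 5′ end, the Arid1a run is upstream of an internal TSS apart from its last 12 bases, and the Arid2 run is upstream of the gene.
Smarca2 (chr19:26681056-26681355, plus strand): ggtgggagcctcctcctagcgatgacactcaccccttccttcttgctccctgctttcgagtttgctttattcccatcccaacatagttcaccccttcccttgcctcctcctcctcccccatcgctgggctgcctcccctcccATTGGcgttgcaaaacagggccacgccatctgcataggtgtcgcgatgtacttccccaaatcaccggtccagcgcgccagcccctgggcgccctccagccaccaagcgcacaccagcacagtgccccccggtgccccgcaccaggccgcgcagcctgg
Smarcd2 (chr11:106133726-106134022, minus strand): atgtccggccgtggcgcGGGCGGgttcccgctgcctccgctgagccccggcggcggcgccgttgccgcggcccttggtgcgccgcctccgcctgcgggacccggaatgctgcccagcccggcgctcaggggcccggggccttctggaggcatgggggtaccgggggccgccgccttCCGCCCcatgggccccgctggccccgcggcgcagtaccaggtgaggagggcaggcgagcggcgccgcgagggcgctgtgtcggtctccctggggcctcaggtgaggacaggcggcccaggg
Smarcd3 (chr5:24107831-24107945, minus strand): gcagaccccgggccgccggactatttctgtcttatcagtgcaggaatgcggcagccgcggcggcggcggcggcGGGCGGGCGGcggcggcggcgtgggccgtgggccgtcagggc
Arid1a (chr4:133309886-133310185, minus strand): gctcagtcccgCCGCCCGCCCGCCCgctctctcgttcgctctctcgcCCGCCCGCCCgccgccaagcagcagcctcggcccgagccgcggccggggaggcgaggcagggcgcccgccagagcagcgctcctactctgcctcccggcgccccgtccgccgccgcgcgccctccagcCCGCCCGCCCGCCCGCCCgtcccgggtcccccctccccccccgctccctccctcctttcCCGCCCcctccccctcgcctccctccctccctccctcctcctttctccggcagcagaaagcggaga
Arid2 (chr15:96117449-96117748, plus strand): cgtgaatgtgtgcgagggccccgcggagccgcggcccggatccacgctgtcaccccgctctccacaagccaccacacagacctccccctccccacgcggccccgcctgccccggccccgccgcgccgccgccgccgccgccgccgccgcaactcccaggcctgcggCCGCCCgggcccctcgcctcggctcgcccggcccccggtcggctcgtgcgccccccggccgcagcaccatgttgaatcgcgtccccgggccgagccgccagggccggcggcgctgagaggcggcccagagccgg
The Arid1a run held 10 copies of GGGCGG, several of which overlapped one another. The Smarcd2 run held 2 copies, as did the Smarcd3 run, where they overlapped, and the Arid2 run held 1. The Smarca2 run held CCAAT once and no GGGCGG.

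The 250 bases upstream of the 5′ end are shown for 3 of the 4 genes that had no region at a TSS. That of Smarcd1 overlaps an annotated untranslated region and is not shown. These runs do not match those above, which were taken from the regions, differ in length and in part lie inside the gene. Words that differ between them and the runs above may therefore reflect position alone. Windows at the same place in all the paralogue genes are counted further below. Capitals here also mark CCGGAAG (ETS factors) and GCATGCGC (NRF1).
Smarca4 (chr9:21420363-21420612, plus strand): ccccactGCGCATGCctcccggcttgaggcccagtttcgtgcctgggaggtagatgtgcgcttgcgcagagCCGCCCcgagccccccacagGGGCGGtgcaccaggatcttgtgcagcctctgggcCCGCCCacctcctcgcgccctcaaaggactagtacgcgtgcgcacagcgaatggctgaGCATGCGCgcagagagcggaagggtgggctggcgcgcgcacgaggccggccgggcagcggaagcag
Smarcc1 (chr9:110034291-110034540, plus strand): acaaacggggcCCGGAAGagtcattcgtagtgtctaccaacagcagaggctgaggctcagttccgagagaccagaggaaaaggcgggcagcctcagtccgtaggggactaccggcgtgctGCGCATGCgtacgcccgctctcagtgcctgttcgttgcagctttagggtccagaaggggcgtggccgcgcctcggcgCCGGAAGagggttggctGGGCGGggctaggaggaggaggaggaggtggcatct
Smarcc2 (chr10:127896042-127896291, plus strand): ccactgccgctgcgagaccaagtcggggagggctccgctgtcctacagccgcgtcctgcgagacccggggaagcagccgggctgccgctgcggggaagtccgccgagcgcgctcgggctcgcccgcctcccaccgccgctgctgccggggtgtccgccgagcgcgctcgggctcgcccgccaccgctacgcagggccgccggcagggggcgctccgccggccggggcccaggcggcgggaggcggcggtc
The Smarca4 run held 3 copies of GGGCGG and 2 of GCATGCGC. The Smarcc1 run held 2 copies of CCGGAAG, 1 of GCATGCGC and 1 of GGGCGG. None of the searched words occurred in the Smarcc2 run, although 80.8% of its bases were G or C.

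In 2 of the 4 families, the ATPases and BAF60, paralogues differed in whether BRG1 was listed at them. Smarca2 but not Smarca4 had a region at a TSS, as did Smarcd2 and Smarcd3 but not Smarcd1. All 3 ARID genes had a region and neither Smarcc1 nor Smarcc2 did. In the whole genome, 2667 of 22367 protein-coding genes (11.9%) had a region within 1 kb of a TSS, against 6 of the 10 paralogues (60.0%). Promoters rich in CpG dinucleotides, defined as GC content above 50% and a CpG observed/expected ratio above 0.6 from 250 bases before to 50 after the gene 5′ end, had regions more often. All 10 paralogues met this definition, as did 41.7% of protein-coding genes, and 22.4% of the genes that met it had a region at a TSS. The number of annotated TSSs differed as well. The 6 genes with a region had 2 to 9 TSS positions and the 4 without had 1 to 3, and among all protein-coding genes the share with a region was 7.04% with 1 position, 12.2% with 2 or 3 and 18.8% with 4 or more. Among genes with CpG-rich promoters, the class of all 10, these shares lay closer together, at 20.0%, 22.1% and 24.4%. The part of TSS number in the count of 6 was not tested, but it bears on 2 genes directly: with the gene 5′ end as the only TSS, Smarca2 and Arid1a lost their regions and 4 of 10 remained, beside 10.8% of protein-coding genes. Which families differed within themselves changed with such choices. With the 5′ end only, the ATPases no longer differed and the ARID genes did. With the starts of the RefSeq table, which also lose Smarca2 and Smarcd2, 3 of 9 genes had a region and the BAF60 genes alone differed. The share of all protein-coding genes was not computed with those starts, so that count has no background. With regions on more than 1 row only, the 3 ARID genes had a region at a TSS, beside 3.2% of protein-coding genes. The others did not, and no family differed within itself.

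**Figure D1:**
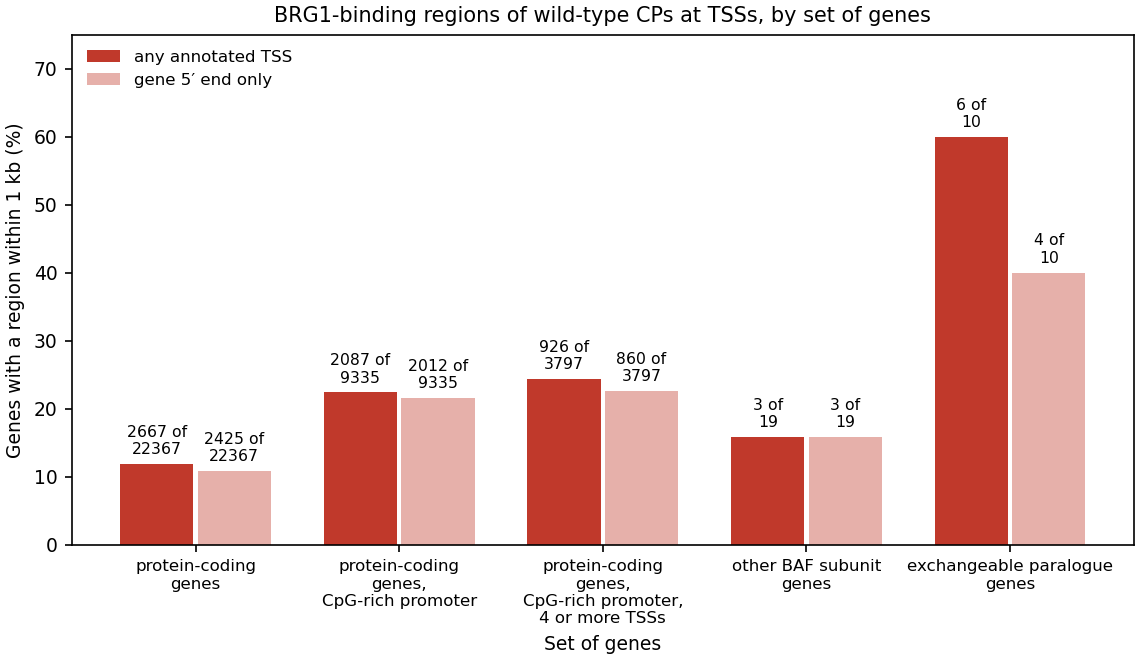
Percentage of genes that had a BRG1-binding region within 1 kb in CPs, for any annotated TSS (dark bars) and for the gene 5′ end only (light bars), with the counts above each bar. The 10 paralogue genes stood at 60.0% and 40.0%, and CpG-rich promoters at 22.4% and 21.6%.

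Regions away from TSSs were few, and more genes had a region within 100 kb. A region in the gene body away from any annotated TSS was listed for 1 of the 10 genes, Arid1b, and for 1.62% of protein-coding genes. Within 100 kb, 7 of the 10 had a region, against 40.3% of protein-coding genes, and these 7 were the 6 with a region at a TSS and Smarcc1. Near the 1 kb limit, the gene with the widest gap inside it was Smarca2, at 315 bp, and the next outside was Smarcc1, at 14.4 kb. Smarcc1 was then the last inside the 100 kb limit, and the next outside was Smarcd1, whose nearest region began 325 kb past its 3′ end. In all, 11 distinct regions lay within 100 kb of the genes, of which 6 were at their TSSs, 2 at TSSs of other genes, 1 in an intron and 2 between genes.

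**Figure D2:**
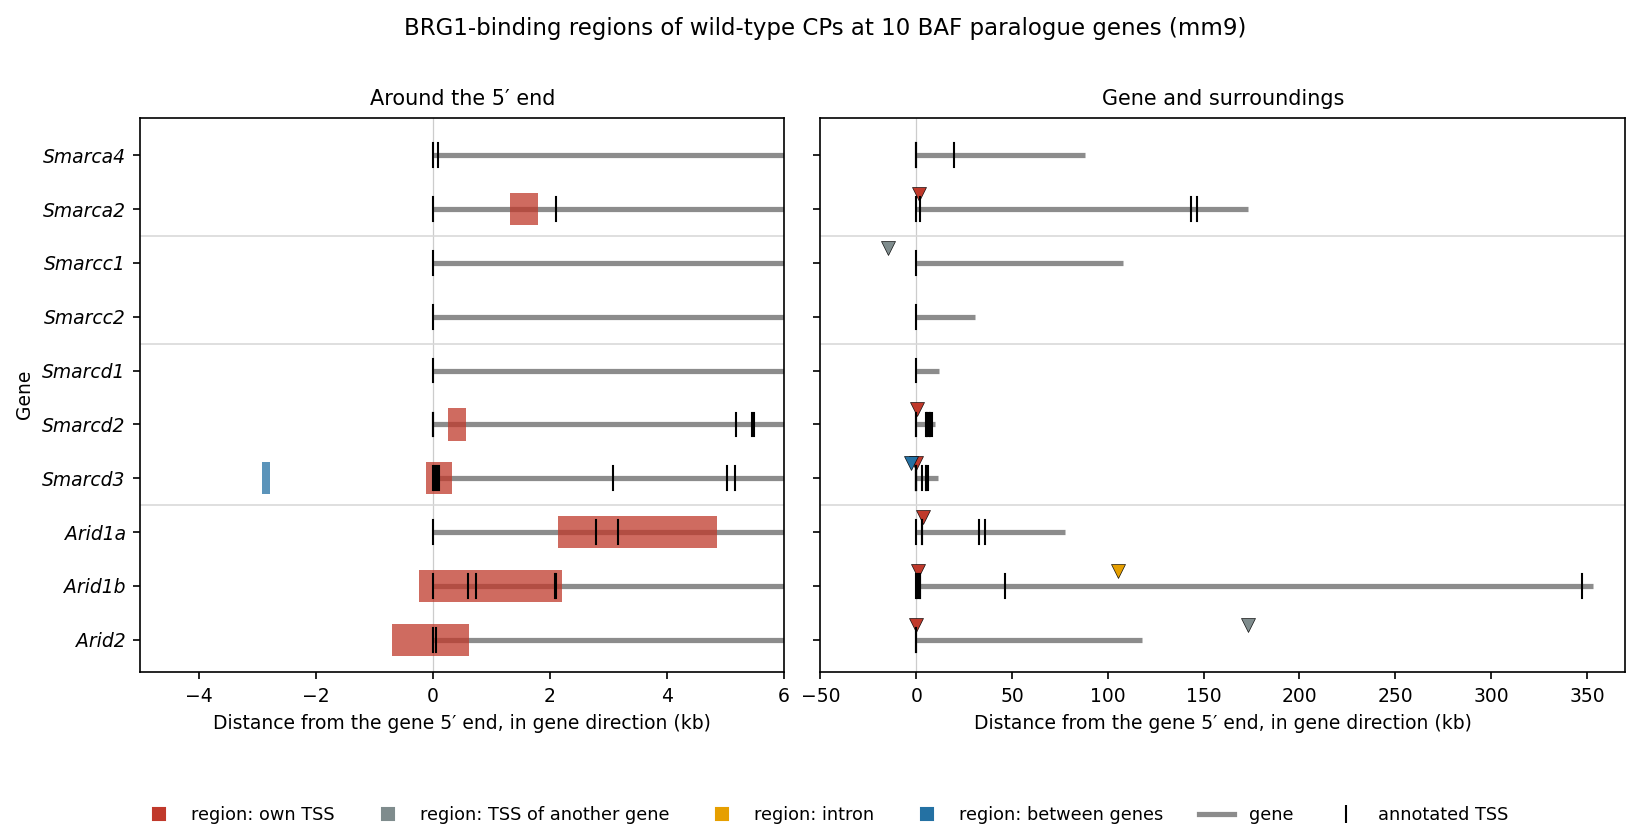
Regions around each gene, plotted by distance from the gene 5′ end in the direction of transcription (kb), near the 5′ end (left, boxes to scale) and from 50 kb upstream to past the 3′ end (right, triangles at midpoints). Grey lines are genes and black ticks are annotated TSSs. The Smarca2 and Arid1a boxes begin 1.32 and 2.14 kb past the 5′ end, and the Smarcd3, Arid1b and Arid2 boxes span it.

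The ATPase genes differed in position and in surroundings. Smarca4 (ENSMUSG00000032187, chr9:21420613-21508674, plus strand), which encodes BRG1 itself, had no region within 100 kb. The nearest to its 5′ end was 377 kb upstream, at chr9:21043086-21043505, and 30 protein-coding genes, 23 of them with CpG-rich promoters, had their 5′ ends in the stretch of 812 kb between it and the next region downstream. By that number of CpG-rich promoters the stretch ranked 15 among 3493 stretches between neighbouring regions or chromosome ends. Smarca2 (ENSMUSG00000024921, chr19:26679650-26852811, plus strand) encodes the alternative ATPase BRM, and 1 of its 4 TSS positions was at a region. That region, chr19:26680966-26681445, was 480 bp wide, lay between annotated exons, and ended 315 bp before an internal TSS that is 2110 bp downstream of the 5′ end. It was the only region within 100 kb of the gene.

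The scaffold genes had no region at a TSS. Smarcc1 (ENSMUSG00000032481, chr9:110034541-110142682, plus strand), which encodes BAF155, had a region of 620 bp at chr9:110019566-110020185, with its midpoint 14.7 kb upstream of the 5′ end. This region was at the TSSs of Dhx30, which encodes a putative RNA helicase, and of Gm10615. Smarcc2 (ENSMUSG00000025369, chr10:127896292-127927229, plus strand) encodes BAF170, which was deleted in some of the cells of the series, and was the farthest of the 10 from any region. The nearest, chr10:126602266-126602385, was 120 bp wide and 1294 kb upstream, and it was the last region listed on chromosome 10. Over the remaining 3.39 Mb, 149 protein-coding genes had their 5′ ends, 34 of them with CpG-rich promoters, and none had a region at a TSS. On the whole of chromosome 10, 23.5% of 459 genes with CpG-rich promoters had one, close to the genome as a whole. By CpG-rich promoters without a region the stretch ranked 4 of 3493, and no other chromosome had more than 15 CpG-rich promoters past its last listed region. At the opposite end, the 12386 kb of chromosome 14 before its first listed region held 33. Sequence around the Smarcc2 5′ end was not repeated, since each of the 1927 words of 75 bases, the read length, within 1 kb of it occurred at 1 place in mm9. What left this end of the chromosome without regions was not tested, and the list may be incomplete there. Smarcc2 is therefore counted as without a listed region, and not as unbound.

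**Figure D3:**
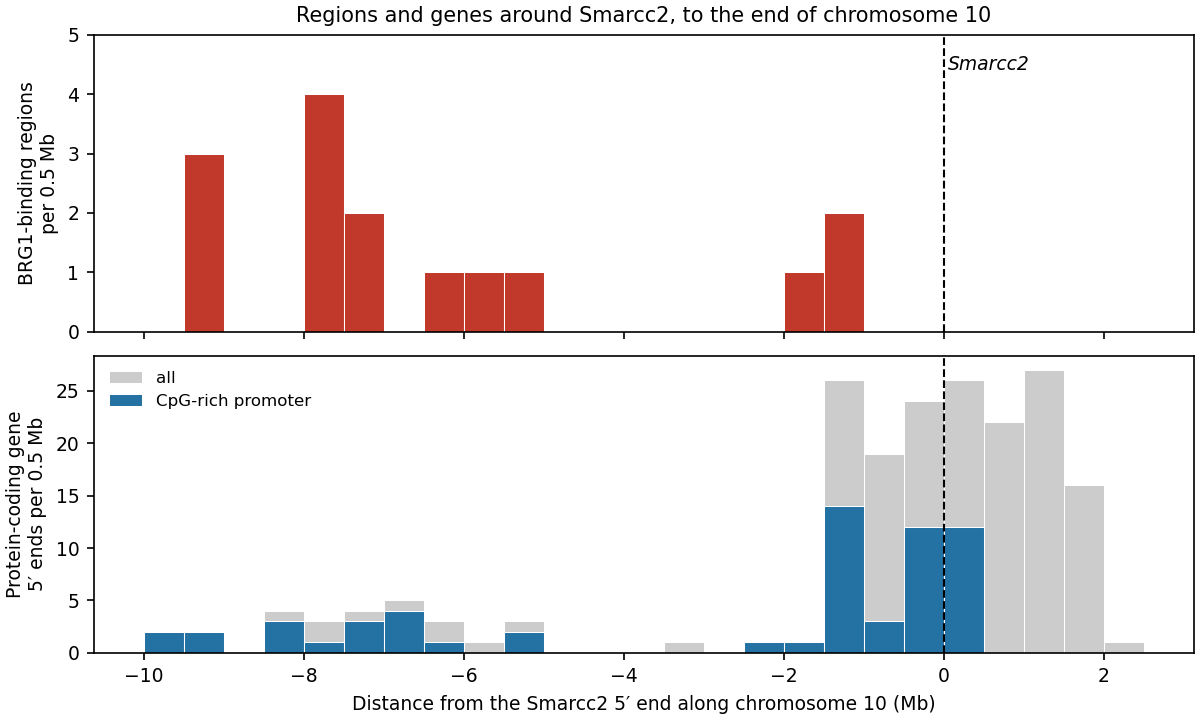
BRG1-binding regions (top) and 5′ ends of protein-coding genes (bottom, all in grey and those with CpG-rich promoters in blue) per 0.5 Mb, by distance from the Smarcc2 5′ end along chromosome 10 (Mb). The dashed line marks Smarcc2, and the last region lies 1.29 Mb before it, whereas genes continue for over 2 Mb past it.

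Among the BAF60 genes, Smarcd2 and Smarcd3 had a region at the 5′ end and Smarcd1 had none. Smarcd1 (ENSMUSG00000023018, chr15:99532718-99544426, plus strand), which encodes BAF60a, has 1 annotated TSS. Its nearest region, chr15:99869386-99869745, was 337 kb downstream of the TSS, and the stretch between regions around it held 14 CpG-rich promoters. Smarcd2 (ENSMUSG00000078619, chr11:106124493-106134286, minus strand) encodes BAF60b and had a region of 300 bp, chr11:106133726-106134025, with its midpoint 410 bp downstream of the 5′ end. It covered the start of the coding sequence and part of the intron that follows, and 2 of the 9 TSS positions were within 1 kb. The single RefSeq start of Smarcd2 is 5340 bp from this 5′ end and had no region. Smarcd3 (ENSMUSG00000028949, chr5:24096636-24107830, minus strand) encodes BAF60c, which was also deleted in some cells of the series. Its region of 440 bp, chr5:24107506-24107945, spanned the 5′ end, reaching 115 bp upstream and 324 bp downstream, and covered 4 of the 8 TSS positions. Each of these regions was on 1 row of the list, as were 73.1% of the regions at annotated TSSs, whose median width was 420 bp.

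Smarcd3 was the only one of the 10 genes with another region within 5 kb of a TSS. This region, chr5:24110606-24110745, was 140 bp wide, lay between genes and was centred 2.85 kb upstream of the 5′ end, with Smarcd3 as the gene of its nearest TSS. It is shown whole on the strand of the gene, with GGGCGG in capitals.
Smarcd3 upstream region (chr5:24110606-24110745, minus strand): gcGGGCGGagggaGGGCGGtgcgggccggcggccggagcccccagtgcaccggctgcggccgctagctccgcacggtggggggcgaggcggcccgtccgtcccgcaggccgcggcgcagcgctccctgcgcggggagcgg
GC content was 85.0% and the CpG observed/expected ratio 0.97, so that by base composition it resembled a CpG-rich promoter although no TSS was annotated within 1 kb. It was narrow within the list, since 85.5% of all regions were at least as wide.

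The ARID genes had the widest regions of the 10. Arid1a (ENSMUSG00000007880, chr4:133234923-133312684, minus strand), which encodes the DNA-binding subunit BAF250a, had a region of 2720 bp at chr4:133307826-133310545. It began 2.14 kb downstream of the 5′ end and spanned 2 internal TSS positions, 2787 and 3158 bp downstream of it. Arid1b (ENSMUSG00000069729, chr17:4994332-5347656, plus strand), which encodes the paralogue BAF250b, had a region of 2460 bp at chr17:4994086-4996545, which spanned the 5′ end and 5 of the 7 TSS positions. These regions ranked 8 and 12 by width among all 3473, and they were on 16 and 9 rows, where only 9 regions of the list were on 9 or more. Arid2 (ENSMUSG00000033237, chr15:96117953-96235894, plus strand) encodes BAF200, a subunit of the related PBAF complex, and its region of 1320 bp at chr15:96117246-96118565 was on 2 rows and spanned both TSS positions. Thus all 3 ARID regions were 1000 bp wide or more, as were 12.4% of the regions at annotated TSSs, whereas the 3 regions at Smarca2, Smarcd2 and Smarcd3 were 300 to 480 bp wide. Why some regions are on several rows is not stated in the sources used here, so the row count is given as a property of the list and not as a strength of binding.

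**Figure D4:**
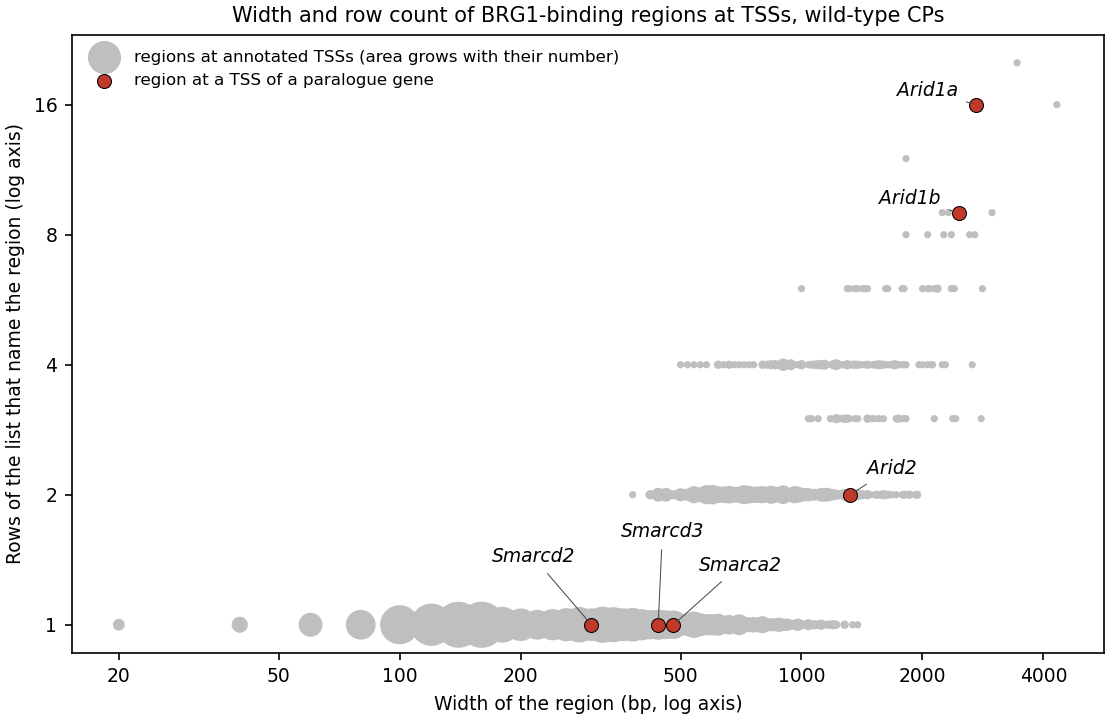
Width (bp, log axis) against number of rows (log axis) for the 2566 regions at annotated TSSs (grey, area growing with the number of regions at a point) and for the 6 at TSSs of the paralogue genes (red). The Arid1a and Arid1b regions lie at the upper right with 16 and 9 rows, and the Smarca2, Smarcd2 and Smarcd3 regions lie on 1 row near the middle of the widths.

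Arid1b and Arid2 also had regions over 100 kb downstream of their 5′ ends. A region of 100 bp on 1 row, chr17:5099386-5099485, lay in an intron of Arid1b 105 kb downstream of the 5′ end, with the nearest TSS, of Gm15599, 12.7 kb away. A region of 960 bp on 2 rows, chr15:96290546-96291505, lay past the 3′ end of Arid2 at the TSS of Scaf11, which encodes a splicing-related protein. The whole of the Arid1b region is shown on the strand of the gene because it differs in composition from the other runs, with the GATA word AGATAA in capitals.
Arid1b intronic region (chr17:5099386-5099485, plus strand): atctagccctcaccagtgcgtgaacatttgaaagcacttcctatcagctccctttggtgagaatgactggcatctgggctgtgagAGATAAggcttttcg
The Arid1b intronic region had a GC content of 49.0% and a CpG observed/expected ratio of 0.33. Both were below those of every other region within 100 kb of the 10 genes. It was the only one of the runs shown here to hold AGATAA. This word occurred in 8.72% of the windows of all regions and in 2.84% of those at TSSs. It was thus more common still in regions away from TSSs, the class of this one, for which no share was computed. Those windows had a fixed length, longer than this run.

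Base composition at the 5′ end did not separate the genes with a region from those without. GC content was 61.3% to 78.3% in the 6 genes with a region and 67.0% to 81.0% in the 4 without, and the CpG observed/expected ratio was 0.79 to 0.99 and 0.85 to 1.00, so that the ranges overlapped. The medians over all protein-coding genes were 55% and 0.53. Smarca2 and Arid1a had their regions at internal TSSs and not at the 5′ end measured here, and the lowest values, 61.3% and 0.79, were those of Arid1a. Before the internal TSSs at those regions, the values were 66.7% and 0.96 for Smarca2. For Arid1a they were 79.7% and 0.83 at 1 position and 81.0% and 0.82 at the other. In a wider window around the 5′ end, 9 of the 10 still met the definition of CpG-rich, and Arid1a, at 55.0% and 0.58, did not. Within families, Smarca4 had a GC content of 72.3% and Smarca2 of 65.7%, and Smarcc2 had the highest of the 10, at 81.0%, and no region within 1000 kb. Sequence around the 5′ end was largely unique at all 10 genes. Of the words of 75 bases within 1 kb of the 5′ end, 99.2% occurred at 1 place in mm9 for Smarca4, 98.1% for Smarcc1, 100% for Smarcc2 and 97.4% for Smarcd1.

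**Figure D5:**
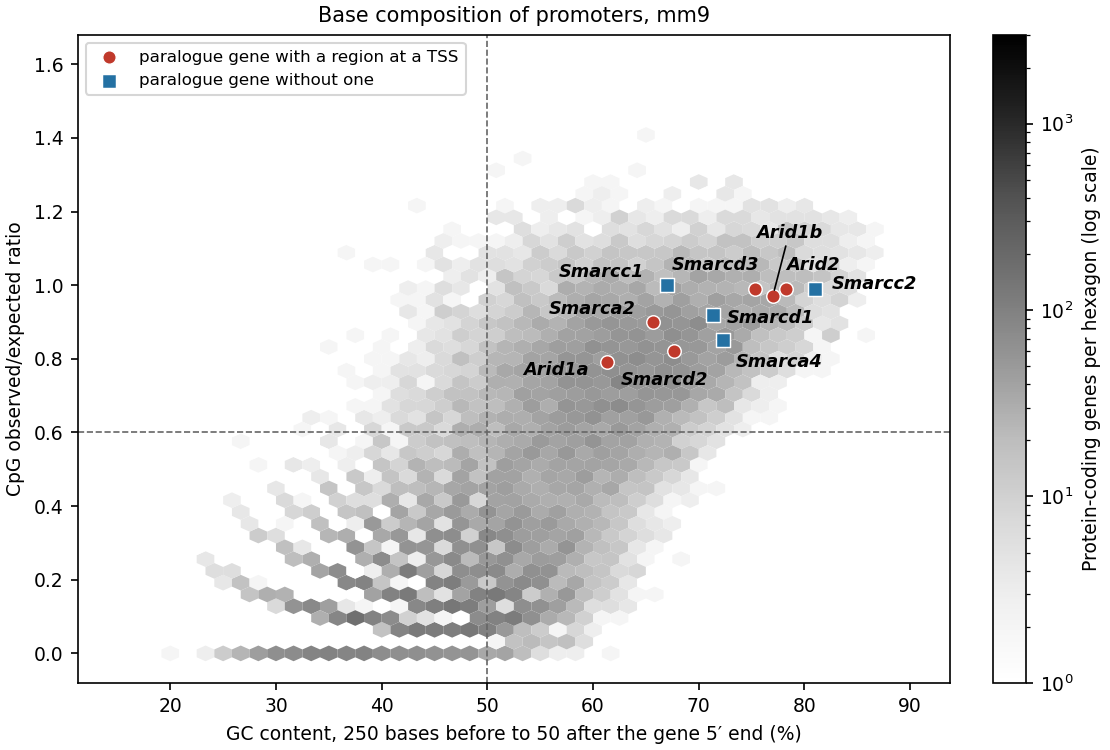
GC content (%) against CpG observed/expected ratio from 250 bases before to 50 after the 5′ end, for all protein-coding genes (grey hexagons, log scale), the 6 paralogue genes with a region at a TSS (red circles) and the 4 without (blue squares). Dashed lines mark 50% and 0.6, and all 10 genes lie above both, with the blue squares among the red circles. Smarca2 and Arid1a are drawn at their 5′ ends, where they had no region.

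All 10 sequence words were counted in windows of 300 bases in the 6 TSS regions, around their midpoints, and in the promoters of the 10 genes, as a description of letters and not of binding. GGGCGG occurred in 5 of the 6 region windows, all but Smarca2, and in 77.6% of the windows of all 2566 regions at TSSs. It occurred in 9 of the 10 promoters, all but Arid1b, and in 76.5% of CpG-rich promoters. A GC box was thus common both here and in promoters of that composition. CCAAT occurred in the region window of Smarca2 and the promoter of Smarcd2, and in 12.3% of region windows and 36.8% of CpG-rich promoters. GCATGCGC occurred in the promoters of Smarca4 and Smarcc1 and CCGGAAG in those of Smarca2 and Smarcc1, against 6.35% and 19.7% of CpG-rich promoters. The YY1 word AAGATGGC occurred in the promoter of Smarcd1 and in 4.85% of CpG-rich promoters. AGATAA, the T-box word AGGTGTGA, the E-box CACGTG, the CRE word TGACGTCA and the TATA word TATAAA occurred in none of the 6 region windows or 10 promoters. In the windows of regions at TSSs their shares were 2.84%, 0.312%, 5.34%, 0.663% and 2.07%. In CpG-rich promoters they were 3.75%, 0.718%, 11.6%, 4.03% and 4.58%.

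The other 19 BAF subunit genes examined encode shared and accessory subunits and some further paralogues, such as Actl6a and Actl6b, Dpf1 to Dpf3 with Phf10, and Ss18 and Ss18l1. Regions at TSSs were listed at 3 of them (15.8%), near the 11.9% of all protein-coding genes, and 13 of the 19 had CpG-rich promoters. At Dpf1, which encodes a neuronal BAF45 subunit, the region was 120 bp wide, at Bcl7c it was 200 bp wide and at Ss18 it was 760 bp wide. The genes for the core subunits Smarcb1, Smarce1, Actl6a and Actb had none at a TSS, nor did Actl6b, Dpf2, Dpf3, Phf10, Pbrm1, Brd7, Brd9, Bcl7a, Bcl7b, Ss18l1, Gltscr1 and Gltscr1l. At Phf10, none of the 1927 words of 75 bases within 1 kb of the 5′ end occurred at 1 place only, so that reads from there have no single place in the assembly. The other 4 TSS positions of Phf10 were not examined in this way. Between the gene 5′ end and the nearest region midpoint, the median distance was 51.3 kb for the 19 genes and 2.53 kb for the 10 paralogues. The value for the 10 largely restates the count at TSSs, since 6 of them had a region there. No median was taken over genes with CpG-rich promoters alone. On all chromosomes that had a region, the median for protein-coding genes was 174 kb, and Smarcc2 was among the 14.8% that lay more than 1000 kb from a region.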

How the data were processed

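The authors crosslinked cells with DSG and formaldehyde, digested chromatin with MNase and immunoprecipitated BRG1. Single-end reads of 75 bases were trimmed (fastq-mcf), aligned (Bowtie, mm9) and filtered on mapping quality, after which the authors took bins with significant enrichment, using input DNA as the background. Tool versions and the way in which the 2 ChIP libraries were combined into 1 list are not given in the sources used here. The deposited values are positions in bp, 3 columns with chromosome, start and end, on a grid of 20 bp, so that ends are exact to the grid only.

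Repeated rows were counted once, and starts were read as counted from 0 and printed as counted from 1. Any overlap of a region with a window counted. Genes, transcripts and TSSs came from GENCODE release M1, and sequence from the mm9 assembly. RefSeq promoter sequences (GRCm38.p6), which matched 9 of the 10 genes, all but Arid2, were placed in mm9 by exact match. The CpG observed/expected ratio was the number of CpG times length over the product of the C and G counts. Words of 75 bases were looked up on either strand of all of mm9. Computation used samtools 1.23.1 and Python 3.11.15 with numba 0.67.0, pysam 0.24.0, pandas 2.3.3, numpy 2.4.6 and matplotlib 3.10.9, and the counting steps were tested on simulated data.

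No test was run, since a single list of positions has no replicate values. All 10 genes are named, with the 19 other BAF subunit genes, and any other gene only where its TSS is within 1 kb of, or nearest to, a region within 100 kb of the 10. The members and lists were chosen with earlier results of these data known. Alternatives varied the window, the TSSs, the overlap rule, the regions kept and the composition window.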

Additional observations from a re-analysis of the deposited data

How the results depend on the processing

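Under 48 alternatives to 7 results, 38 values stayed within a factor of 1.5 of the value reported and 10 moved beyond it. With a narrower window or wider ones of 2 kb or 5 kb, protein-coding transcripts only, region midpoints or regions of at least 200 bp, the same 6 genes had a region at a TSS. With the gene 5′ end only, Smarca2 and Arid1a were lost, leaving 4. When only regions on more than 1 row were kept, the 3 ARID genes alone had a region at a TSS, with 3 distinct regions. At a TSS, 3.2% of protein-coding genes and 0 of the 19 other BAF genes then had one. Within 100 kb the 3 ARID genes were again alone, but the share of all protein-coding genes was not computed for that distance. That setting, like a minimum of 200 bp, left 0 genes with a region in the body away from TSSs, because the Arid1b intronic region is 100 bp wide and on 1 row. Keeping regions near TSSs in the body count gave 6 genes by construction, and counting each row gave 30 in place of 6 distinct regions. With starts of the RefSeq table, an alternative chosen after seeing the data, 3 of 9 genes (Smarcd3, Arid1a and Arid1b) had a region within 1 kb. That table places the Smarcd2 start 5340 bp from the 5′ end used here and has no start at the internal TSS of Smarca2. No share of all protein-coding genes was computed with those starts.

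No paired analysis was possible because positions carry no values that differ between libraries. Depth is unknown, which limits what the lack of a region can show. The authors' threshold was not varied, since the list has no P-value, and 10 genes are too few to read a rate from. Transcript levels of these genes were not analysed here.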
